A study of Rattus norvegicus with 4 samples.

Results

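Molecular chaperones of the cytosol and of mitochondria were followed in cultured ventricular myocytes of newborn rats, the beating muscle cells of the heart. The 40 genes chosen were named members of the Hsp70, Hsp90, Hsp60, Hsp40 and CCT families together with their co-chaperones. Of these, 35 were measured by at least 1 probe set that the platform annotation pairs with a single gene symbol, out of 10411 genes so measured. Hspa1b, Hspa8 and Hsp90aa1 were named only by probe sets that carry a second symbol, so the main heat-inducible and constitutive Hsp70 genes and the inducible Hsp90 gene were not used here. Hspa14 and Dnajb6 were not analysed here. Each gene is represented by the probe set with the highest mean over all arrays, and the 44 probe sets of the 35 genes are all given where a gene has several. Myocytes grew on dishes coated with fibronectin, a matrix glycoprotein bound by integrins (2 arrays), or on uncoated dishes as the control (2 arrays). Cells of both groups spent 24 h with 10% serum and then 48 h without serum. The title of the study names hypertrophy brought about by fibronectin as its subject.

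Chaperones bind unfolded stretches of other proteins and release them in cycles driven by ATP. Hsp70 proteins receive clients from J-domain proteins of the Hsp40 family, are reloaded by nucleotide exchange factors, and pass some clients on to Hsp90. CCT is a ring of 8 different subunits that folds actin and tubulin, which reach it from prefoldin, and actin filaments make up much of a muscle cell. Mitochondria hold their own Hsp70, Hsp90, Hsp60 and Hsp10, which fold proteins imported into the matrix. Many of these genes are switched on by heat and other protein stress through heat shock factor, which binds repeats of the letters GAA in alternating orientation.

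Signals are given on the log2 scale after quantile normalization, which gives every array the same distribution, and have a floor of 4.55. Median deposited intensity ran from 97.4 to 110.4 on fibronectin arrays and from 90.9 to 110.8 on controls, and precision is limited by the number of arrays. Fibronectin replicate 2 stood apart, with correlations to the other 3 arrays of 0.775 to 0.794 across 9519 tested probe sets, against 0.847 to 0.910 among the others. The 3' to 5' signal ratio of a control transcript is a measure of RNA and labelling quality. For Gapdh it was 6.02 and 3.52 on fibronectin arrays and 1.64 and 1.15 on controls. For beta-actin it was 13.03 and 6.29 on fibronectin arrays and 1.46 and 1.40 on controls. Both ratios were thus higher on each fibronectin array than on either control, and their part in the chaperone differences was not tested. All 9 measured markers of ventricular myocytes had signal, the lowest averaging 7.70, with summed linear signals of 71221 to 75189 on fibronectin and 60340 to 71880 on controls. Summed fibroblast markers, 7 of 7 measured, were 17857 to 30286 on fibronectin and 30920 to 46994 on controls. Summed leukocyte markers, 6 of 6 measured, were 873.5 to 1097 on fibronectin and 1310 to 1639 on controls. Schwann or neural markers, 4 of 5 measured, summed to 642.9 to 804.9 on fibronectin and 319.2 to 461.7 on controls, while endothelial and smooth muscle sums overlapped. No measured marker of any of these lists was at the floor on all arrays, and the part of such cells in the chaperone values was not tested. In these bulk cultures fewer cells of a type and less RNA per cell cannot be told apart. Whether the 2 arrays of a group stand for separate cultures is not in the labels, so the p-values rest on a spread between samples that could be technical alone.

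The comparison set the chaperone transcripts of myocytes on fibronectin against those of control cells. The 35 genes did not share a direction, and after quantile normalization each family but prefoldin held members with higher and with lower values on fibronectin. Mean signal was higher on fibronectin for 21 genes and lower for 14, beside 51.4% higher over all genes, with a median log2 difference of 0.11, beside 0.02 over the brightest tested probe sets of 7101 genes. Limma's test with Benjamini-Hochberg adjustment called 0 of the 34 tested members, with a lowest adjusted p of 0.743, and 0% of all genes. At an unadjusted p under 0.05 limma gave 2 members with higher values, Pfdn1 and Bag1, beside 3.03% of all genes, and 0 with lower values, beside 2.65%. Both fibronectin arrays lay above both controls for 12 of 35 genes and below them for 8, beside 20.6% and 17.2% of all genes, or 37.8% either way. Which genes lay apart depended on scaling. On the deposited scale, without further normalization, 15 members lay above and 2 below, Dnaja3 and Fkbp4, beside 22.0% and 10.6% of all genes. With arrays only shifted to the same median, 12 lay above and 3 below, St13 being the third, beside 22.1% and 14.2%. On both of these scales 9 of the 12 higher genes were kept, Hsph1, Dnaja2 and Chordc1 were lost, and Cct4, Cct7 and Ahsa1 joined, with Tcp1, Hspbp1 and Cdc37 joining on the deposited scale only. Of the 8 lower genes, Hspa9, Hspd1, Cct2, Cct6a and Stip1 were lost on both. These scaling counts were added after seeing the data, and overlap is given below after quantile normalization. With 2 arrays against 2 an exact permutation test cannot give a two-sided p below 0.333.

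**Figure D1:**
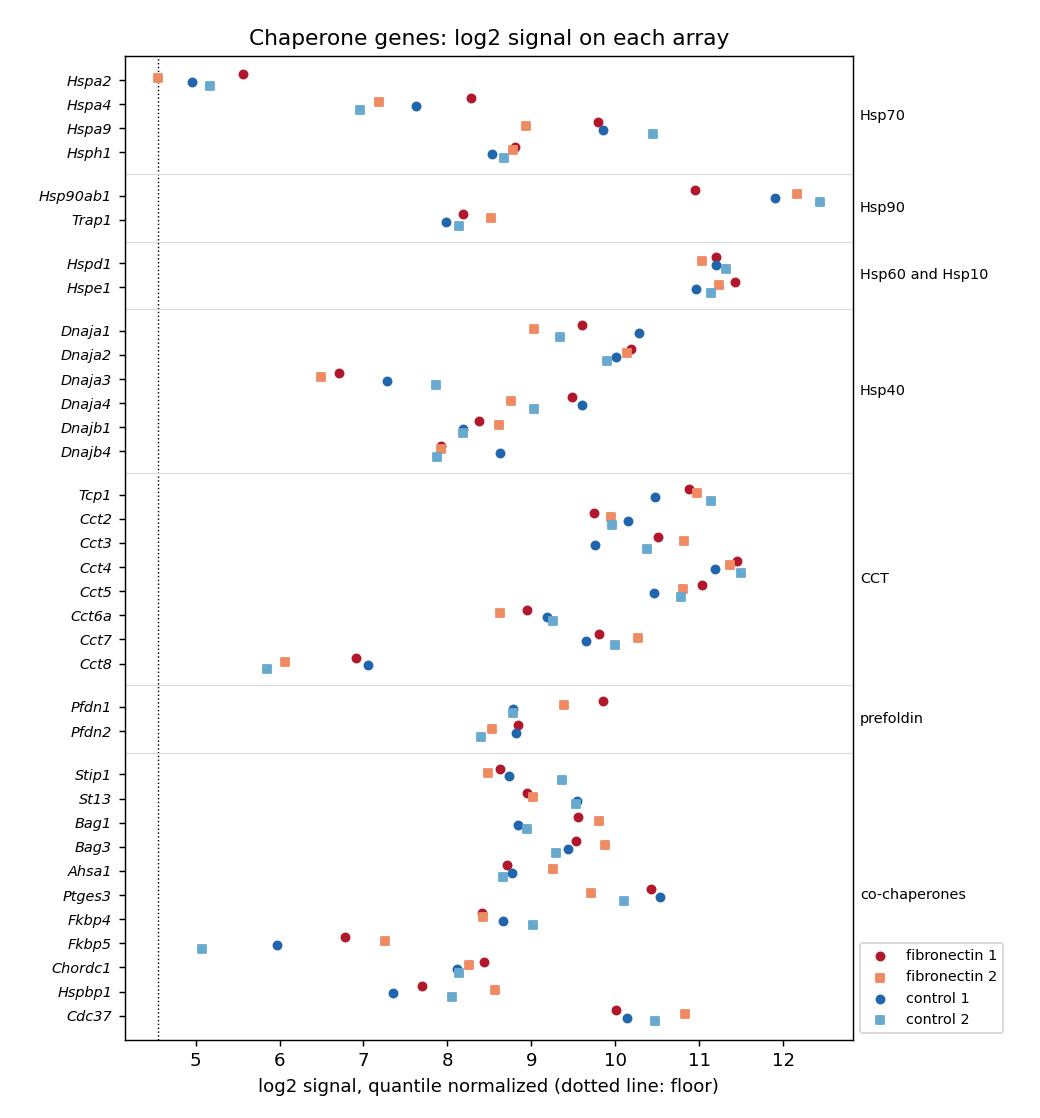
Log2 signal (horizontal axis, quantile normalized, floor marked by a dotted line) of the 35 chaperone genes on each array, with fibronectin arrays in red tones and controls in blue tones, grouped by family. Fkbp5 ranges from 6.78 to 7.26 on fibronectin and from 5.08 to 5.97 on controls, whereas all 4 arrays of Dnaja2 lie between 9.91 and 10.19.

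**Figure D2:**
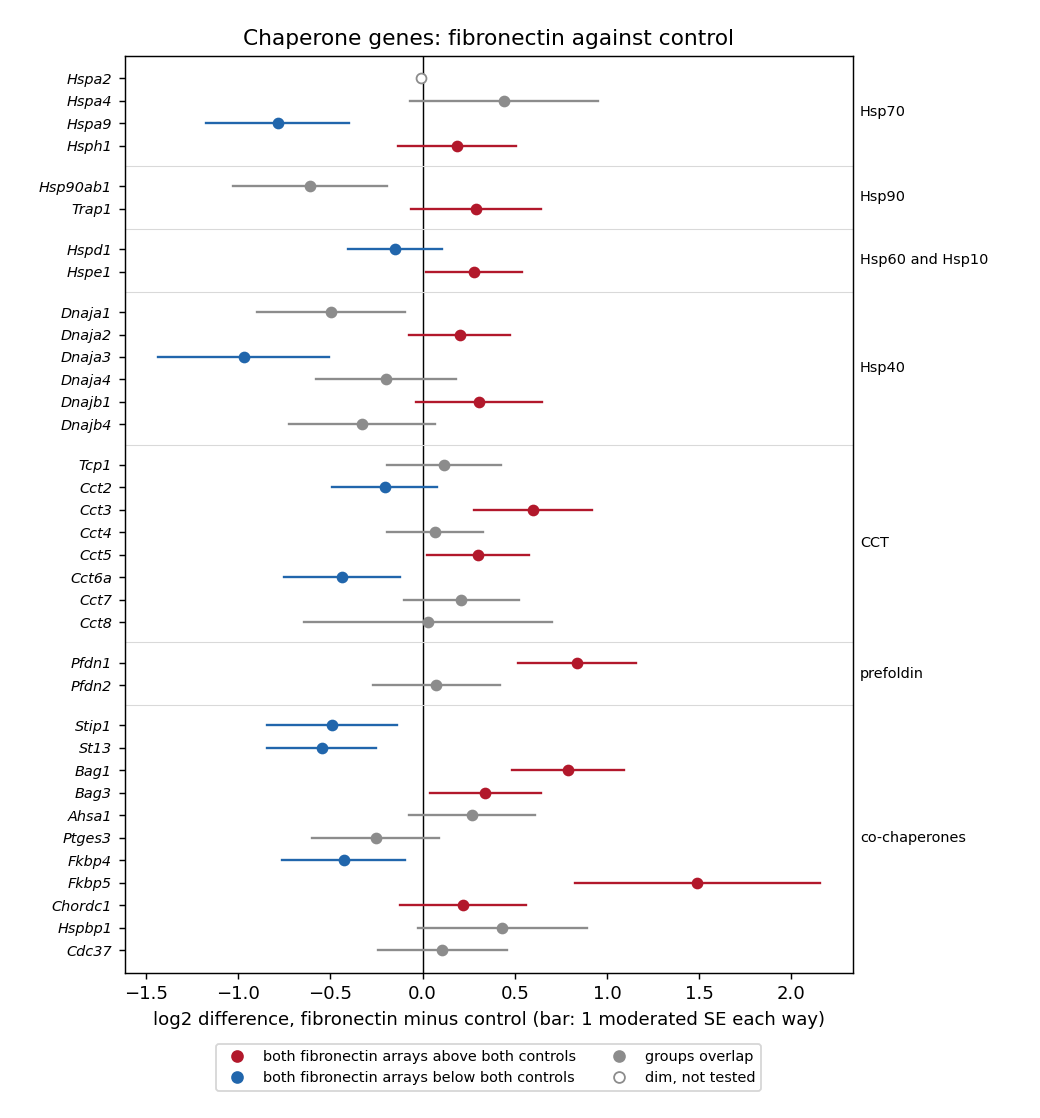
Log2 difference of fibronectin minus control for the same genes, with bars of 1 moderated SE each way and colour for whether the groups overlap (red, both fibronectin arrays above both controls, 12 genes; blue, both below, 8 genes; grey, overlap). After quantile normalization the differences ran from -0.97 for Dnaja3 to 1.49 for Fkbp5, on both sides of 0 in each family but prefoldin.

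Among mitochondrial chaperones, the Hsp70 of the matrix and its J-domain partner had lower values on fibronectin, whereas the Hsp10 and Hsp90 members had slightly higher ones. Hspa9, the mitochondrial Hsp70 known as mortalin that pulls imported proteins into the matrix, measured 9.79 and 8.94 on fibronectin, against 9.85 and 10.45 on uncoated dishes. These are values of its brightest probe set, and its others, given below, differed by -2.59 and 0.05. Dnaja3, the J-domain protein that delivers clients to Hspa9, measured 6.70 and 6.50 on fibronectin, against 7.28 and 7.86 on uncoated dishes. For both genes the fibronectin arrays lay below the controls without overlap. For Hspa9 this held only after quantile normalization, where its fibronectin replicate 1 and control replicate 1 were close to each other. Their log2 differences were -0.79 (SE 0.39) and -0.97 (SE 0.47), and neither passed limma's test (Benjamini-Hochberg adjusted p = 0.762 for each). With 1 array left out the difference of Hspa9 ran from -1.21 to -0.36, nearest to 0 without fibronectin replicate 2, and that of Dnaja3 from -1.26 to -0.68. Trap1, the mitochondrial Hsp90, measured 8.19 and 8.52 on fibronectin, against 7.98 and 8.14 on uncoated dishes, a difference of 0.29 (SE 0.35). Its fibronectin arrays were both above the controls, fibronectin replicate 1 only just.

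Hspd1, the Hsp60 that forms the folding chamber of the matrix, and Hspe1, the Hsp10 that closes it as a lid, gave opposite signs of small size. Hspd1 measured 11.20 and 11.03 on fibronectin, against 11.20 and 11.32 on uncoated dishes, with fibronectin replicate 1 and control replicate 1 almost level. Hspe1 measured 11.42 and 11.23 on fibronectin, against 10.96 and 11.14 on uncoated dishes, so both fibronectin arrays lay above both controls. The differences were -0.15 (SE 0.26) for Hspd1 and 0.28 (SE 0.26) for Hspe1, with limma Benjamini-Hochberg adjusted p of 0.899 and 0.809. On the deposited scale Hspd1 turned to 0.09, while Hspe1 was at 0.55. These 2 genes are shown because they start head to head from a common promoter, so that the windows from 250 bases before to 50 after each start, taken from RefSeq (build GRCr8), share 211 bases on opposite strands. The Hspe1 window is chr9:64084077-64084376, plus strand, and the Hspd1 window is chr9:64083988-64084287, minus strand. Capitals mark heat shock element letters, searched as GAANNTTC or TTCNNGAA, each of which reads the same on both strands.
Hspe1: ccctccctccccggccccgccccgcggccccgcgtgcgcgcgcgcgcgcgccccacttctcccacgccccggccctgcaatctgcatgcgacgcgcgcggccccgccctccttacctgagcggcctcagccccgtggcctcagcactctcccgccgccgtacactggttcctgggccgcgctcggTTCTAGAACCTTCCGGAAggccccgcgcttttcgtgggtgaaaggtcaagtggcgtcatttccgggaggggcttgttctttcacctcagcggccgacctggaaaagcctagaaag
Hspd1: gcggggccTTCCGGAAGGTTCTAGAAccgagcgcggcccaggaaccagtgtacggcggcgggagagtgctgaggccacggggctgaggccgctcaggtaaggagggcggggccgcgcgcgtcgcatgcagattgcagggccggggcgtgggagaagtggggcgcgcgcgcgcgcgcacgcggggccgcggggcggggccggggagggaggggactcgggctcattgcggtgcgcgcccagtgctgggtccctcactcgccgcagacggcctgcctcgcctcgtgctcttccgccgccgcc
The run of 18 capitals, 4 units of alternating orientation, is the same stretch of DNA in both windows and begins 65 bases before the start of Hspe1 and 242 before that of Hspd1.

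The cytosolic Hsp70 machine showed no common shift. Hspa4 and Hsph1 are large relatives of Hsp70 that act on it as nucleotide exchange factors, and Hsph1 is strongly heat-inducible. Hspa4 measured 8.28 and 7.18 on fibronectin, against 7.63 and 6.95 on uncoated dishes, and the groups overlapped, with replicate 1 the higher array in each. Hsph1 measured 8.80 and 8.78 on fibronectin, against 8.53 and 8.67 on uncoated dishes, and both fibronectin arrays lay above both controls, though not on the deposited or the median-shifted scale. The differences were 0.44 (SE 0.51) for Hspa4 and 0.19 (SE 0.32) for Hsph1. Hspa2, an Hsp70 best known from the testis, was too dim to be tested, at 5.57 and 4.55 on fibronectin, against 4.96 and 5.17 on uncoated dishes, where fibronectin replicate 2 was at the floor. The median difference of the 4 measured Hsp70 genes, which include the mitochondrial Hspa9, was 0.09, and it turned to -0.31 without fibronectin replicate 1.

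J-domain proteins, which bring clients to Hsp70 and start its ATP cycle, were also divided. Dnajb1, the heat-inducible Hsp40 of the cytosol, measured 8.37 and 8.61 on fibronectin, against 8.19 and 8.19 on uncoated dishes in its brightest probe set, a difference of 0.31 (SE 0.34). Dnaja2, a constitutive J-domain protein, measured 10.19 and 10.14 on fibronectin, against 10.01 and 9.91 on uncoated dishes, a difference of 0.20 (SE 0.27). For both genes the fibronectin arrays lay above the controls, for Dnaja2 only after quantile normalization. Dnaja1, another cytosolic J-domain protein, measured 9.61 and 9.03 on fibronectin, against 10.29 and 9.34 on uncoated dishes in its brightest probe set. Control replicate 1 was highest and the groups overlapped. The difference of Dnaja1 was -0.50 (SE 0.40), running from -0.97 without control replicate 2 to -0.025 without control replicate 1. Dnaja4 and Dnajb4, further J-domain proteins, differed by -0.20 (SE 0.38) and -0.33 (SE 0.40) with overlapping groups. Over the 6 measured Hsp40 genes the median was -0.26, and without control replicate 1 it was 0.07.

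Genes whose products regulate the release of nucleotide from Hsp70 did not share a direction. Bag1, a BAG-domain exchange factor that also links Hsp70 to the proteasome, measured 9.55 and 9.81 on fibronectin, against 8.84 and 8.95 on uncoated dishes. Bag3, the BAG-domain protein that joins Hsp70 to small heat shock proteins in muscle, measured 9.54 and 9.87 on fibronectin, against 9.43 and 9.30 on uncoated dishes. Both fibronectin arrays exceeded both controls for each gene, more widely for Bag1. The difference was 0.79 (SE 0.30) for Bag1, 1.73-fold higher on fibronectin, with a Benjamini-Hochberg adjusted p of 0.750 in limma, and 0.34 (SE 0.30) for Bag3, with adjusted p = 0.806. With any 1 array left out Bag1 stayed between 0.66 and 0.91. Hspbp1, an exchange factor without a BAG domain, measured 7.70 and 8.57 on fibronectin, against 7.35 and 8.05 on uncoated dishes, with overlapping groups and a difference of 0.43 (SE 0.46). Against these, St13, the Hip protein that slows release of ADP from Hsp70, measured 8.95 and 9.02 on fibronectin, against 9.54 and 9.53 on uncoated dishes. The fibronectin arrays of St13 lay below the controls with little spread within either group, and the difference was -0.55 (SE 0.30), 1.46-fold lower on fibronectin, with limma's Benjamini-Hochberg adjusted p = 0.768.

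The heat-inducible genes Hsph1, Dnajb1 and Chordc1 and the exchange factor Bag1 are shown with their RefSeq promoter windows (GRCr8), since the first 3 carry heat shock element letters and Bag1 carries none. Capitals mark the same letters as above. The windows are chr12:10427118-10427417 on the plus strand for Hsph1, chr19:41431092-41431391 on the minus strand for Dnajb1, chr8:23650571-23650870 on the plus strand for Chordc1 and chr5:60877010-60877309 on the minus strand for Bag1.
Hsph1: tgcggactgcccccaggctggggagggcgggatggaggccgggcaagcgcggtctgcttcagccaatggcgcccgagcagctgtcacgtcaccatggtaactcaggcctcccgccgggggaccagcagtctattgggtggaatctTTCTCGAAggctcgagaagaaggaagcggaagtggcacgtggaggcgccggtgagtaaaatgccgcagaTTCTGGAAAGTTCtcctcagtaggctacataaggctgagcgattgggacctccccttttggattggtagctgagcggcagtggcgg
Dnajb1: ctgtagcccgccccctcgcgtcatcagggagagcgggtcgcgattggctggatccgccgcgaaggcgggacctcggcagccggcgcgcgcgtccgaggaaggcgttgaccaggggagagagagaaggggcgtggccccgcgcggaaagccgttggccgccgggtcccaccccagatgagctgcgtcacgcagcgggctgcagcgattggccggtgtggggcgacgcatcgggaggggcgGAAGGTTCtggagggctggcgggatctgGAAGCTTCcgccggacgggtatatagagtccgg
Chordc1: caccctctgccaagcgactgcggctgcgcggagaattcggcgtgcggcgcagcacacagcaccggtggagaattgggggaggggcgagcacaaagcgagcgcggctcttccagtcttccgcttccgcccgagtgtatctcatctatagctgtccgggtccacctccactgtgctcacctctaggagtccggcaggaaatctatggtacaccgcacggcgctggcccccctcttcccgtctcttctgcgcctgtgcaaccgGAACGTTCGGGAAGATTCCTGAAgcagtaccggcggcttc
Bag1: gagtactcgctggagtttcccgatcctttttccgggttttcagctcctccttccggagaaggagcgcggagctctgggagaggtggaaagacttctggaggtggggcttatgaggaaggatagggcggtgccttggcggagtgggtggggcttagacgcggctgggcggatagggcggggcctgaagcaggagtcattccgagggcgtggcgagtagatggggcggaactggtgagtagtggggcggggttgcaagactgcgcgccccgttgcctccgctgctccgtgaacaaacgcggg
The brightest probe sets of the first 3 genes had similar differences of 0.19, 0.31 and 0.22, below the 0.79 of Bag1, while the other probe set of Dnajb1 differed by -1.22. These 4 genes do not stand for their classes. Differences ran from -0.79 to 0.34 over the 15 measured genes with such letters, and from -0.97 to 1.49 over the 17 with none.

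In the Hsp90 machine, Fkbp5 had higher and Fkbp4 lower values on fibronectin without overlap on all 3 scales, and Chordc1 (higher) and Stip1 (lower) only after quantile normalization. Hsp90ab1, the constitutive cytosolic Hsp90, measured 10.95 and 12.17 on fibronectin, against 11.90 and 12.44 on uncoated dishes. Fibronectin replicate 1 was the lowest array and the groups overlapped. The difference was -0.61 (SE 0.42), and -0.0019 without fibronectin replicate 1, while the median of Hsp90ab1 and Trap1 was -0.16, turning to 0.05 on the deposited scale. Stip1, the Hop protein that bridges Hsp70 and Hsp90, measured 8.63 and 8.49 on fibronectin, against 8.73 and 9.36 on uncoated dishes, and both fibronectin arrays lay below both controls. Fkbp4 and Fkbp5 are immunophilins that compete for Hsp90 in steroid receptor complexes, and Fkbp5 is a well-known target of glucocorticoids. Fkbp5 measured 6.78 and 7.26 on fibronectin, against 5.97 and 5.08 on uncoated dishes, a difference of 1.49 (SE 0.66), the largest among brightest probe sets. Its control mean of 5.53 was below 6.01, the lowest mean of any tested probe set, so Fkbp5 entered the test through its fibronectin arrays. Fkbp4 measured 8.41 and 8.42 on fibronectin, against 8.67 and 9.02 on uncoated dishes, a difference of -0.43 (SE 0.33) in the opposite direction. For both immunophilins the groups did not overlap, but the 2 controls of Fkbp5 differed from each other by more than the nearest arrays of the groups did.

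None of these passed limma's test, with Benjamini-Hochberg adjusted p of 0.762 for Fkbp5, 0.794 for Fkbp4 and 0.779 for Stip1, which differed by -0.49 (SE 0.35), or -0.80 to -0.18 with 1 array left out. Fkbp5 ran from 1.04 to 1.94 with 1 array left out, lowest without control replicate 2, and was at 0.89 with an offset of 50 in place of the floor, and its control signals were dim. Cdc37, which loads protein kinases onto Hsp90, measured 10.01 and 10.83 on fibronectin, against 10.14 and 10.48 on uncoated dishes, a difference of 0.11 (SE 0.35) with replicate 2 the higher array in each group. Chordc1, a heat-inducible Hsp90 partner, measured 8.43 and 8.26 on fibronectin, against 8.12 and 8.14 on uncoated dishes and differed by 0.22 (SE 0.34) without overlap. Ahsa1, which stimulates the ATPase of Hsp90, and Ptges3, the p23 protein that stabilizes its closed state, differed by 0.27 (SE 0.34) and -0.26 (SE 0.34) with overlapping groups. Ahsa1 was at 0.0012 without fibronectin replicate 2 and 0.54 without fibronectin replicate 1. Over the 11 co-chaperones of Hsp70 and Hsp90 the median was 0.22, and it was 0.51 without fibronectin replicate 1 and 0.0012 without fibronectin replicate 2.

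The subunits of the CCT ring, all 8 of those listed being measured, had a median difference of 0.09, which was 0.34 on the deposited and 0.29 on the median-shifted scale and -0.03 without control replicate 1. Mean values were higher for 6 subunits and lower for 2, with the same signs on the deposited and the median-shifted scale. Cct3 measured 10.51 and 10.81 on fibronectin, against 9.76 and 10.37 on uncoated dishes, so both fibronectin arrays were above both controls, and it had the largest positive difference of the family at 0.60 (SE 0.32), or 0.29 to 0.91 with 1 array left out. Cct5 measured 11.03 and 10.81 on fibronectin, against 10.46 and 10.78 on uncoated dishes, also above the controls, with a difference of 0.30 (SE 0.28). Cct6a measured 8.94 and 8.63 on fibronectin, against 9.19 and 9.26 on uncoated dishes in its brightest probe set, below both controls, with a difference of -0.44 (SE 0.32). Cct2 measured 9.75 and 9.95 on fibronectin, against 10.15 and 9.96 on uncoated dishes, with fibronectin replicate 2 just below control replicate 2, and differed by -0.21 (SE 0.28). Cct4, the subunit with the brightest probe set, measured 11.45 and 11.37 on fibronectin, against 11.18 and 11.50 on uncoated dishes, with overlapping groups and a difference of 0.07 (SE 0.26), against 0.37 and no overlap on the deposited scale.

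The 3 remaining CCT subunits, Tcp1, Cct7 and Cct8, overlapped between the groups and differed by 0.12 (SE 0.31), 0.21 (SE 0.31) and 0.03 (SE 0.67). On the deposited scale Tcp1 and Cct7 also lay above the controls without overlap. Among brightest probe sets no subunit passed limma's test, the lowest Benjamini-Hochberg adjusted p being 0.764 for Cct3. In prefoldin, the jellyfish-shaped carrier that hands unfolded actin and tubulin to CCT, the 2 listed subunits are Pfdn1 and Pfdn2. Pfdn1 measured 9.85 and 9.39 on fibronectin, against 8.78 and 8.78 on uncoated dishes, with the controls almost level and both fibronectin arrays higher. Its difference was 0.84 (SE 0.32), 1.79-fold higher, and limma gave a Benjamini-Hochberg adjusted p of 0.743. It ran from 0.61 to 1.07 with 1 array left out. Pfdn2 measured 8.84 and 8.53 on fibronectin, against 8.82 and 8.40 on uncoated dishes in its brightest probe set, a difference of 0.08 (SE 0.35) with overlapping groups.

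For 8 genes the array holds several probe sets. In 3 of these genes a dimmer probe set had a far lower difference of fibronectin minus control than the brightest. Probe set 1377006_at of Cct6a sat at the floor for fibronectin replicates 1 and 2, against 8.13 and 8.98 on uncoated dishes, at least 16.0-fold lower, with limma's Benjamini-Hochberg adjusted p = 0.476. Probe set 1370690_at of Hspa9 measured 6.40 and 4.94 on fibronectin, against 7.50 and 9.03 on uncoated dishes, a difference of -2.59 (SE 0.71), while a further one, 1389930_at, differed by 0.05 (SE 0.54). Probe set 1383302_at of Dnajb1 measured 6.90 and 6.35 on fibronectin, against 7.63 and 8.07 on uncoated dishes, a difference of -1.22 (SE 0.45), opposite in sign to the brightest one. None of the 3 passed limma's test, the Benjamini-Hochberg adjusted p of the Hspa9 and Dnajb1 probe sets being 0.634 and 0.735. In each case both fibronectin arrays lay well below both controls, on arrays whose Gapdh 3' to 5' ratios were 6.02 and 3.52, against 1.64 and 1.15 on controls. The part of that ratio, or of the beta-actin ratio given above, in the disagreement was not tested. The Hspa9 and Cct6a probe sets passed the adjusted threshold of limma without fibronectin replicate 1 and with the replicate number as a block, and both had fibronectin means below 6.01, the lowest mean of any tested probe set, so they entered the test through the controls.

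The dimmer probe sets of the other genes had differences nearer to that of the brightest. The second probe set of Dnaja1 differed by 0.22 (SE 0.34), opposite in sign to the brightest, and that of Pfdn2 by 0.69 (SE 0.50), with both fibronectin arrays above both controls. Those of Hsp90ab1, Dnaja4 and St13 differed by -0.38 (SE 0.48), -0.01 (SE 0.38) and -0.56 (SE 0.65), in the direction of the brightest. In each the groups overlapped, and the sign changed with 1 array left out. They then ran from -1.18 to 0.42, -0.18 to 0.15 and -1.42 to 0.31. On the deposited scale the dimmer probe set of Dnaja4 was at 0.025, against -0.095 for its brightest. Across the 8 genes the lowest and the highest difference of a gene were a median of 0.67 log2 units apart. The sign agreed among all probe sets for 5 genes, with all arrays and after quantile normalization. When all probe sets of a gene were averaged, Dnajb1 turned to -0.46, Hspa9 was at -1.11 and Cct6a at -2.22.

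**Figure D3:**
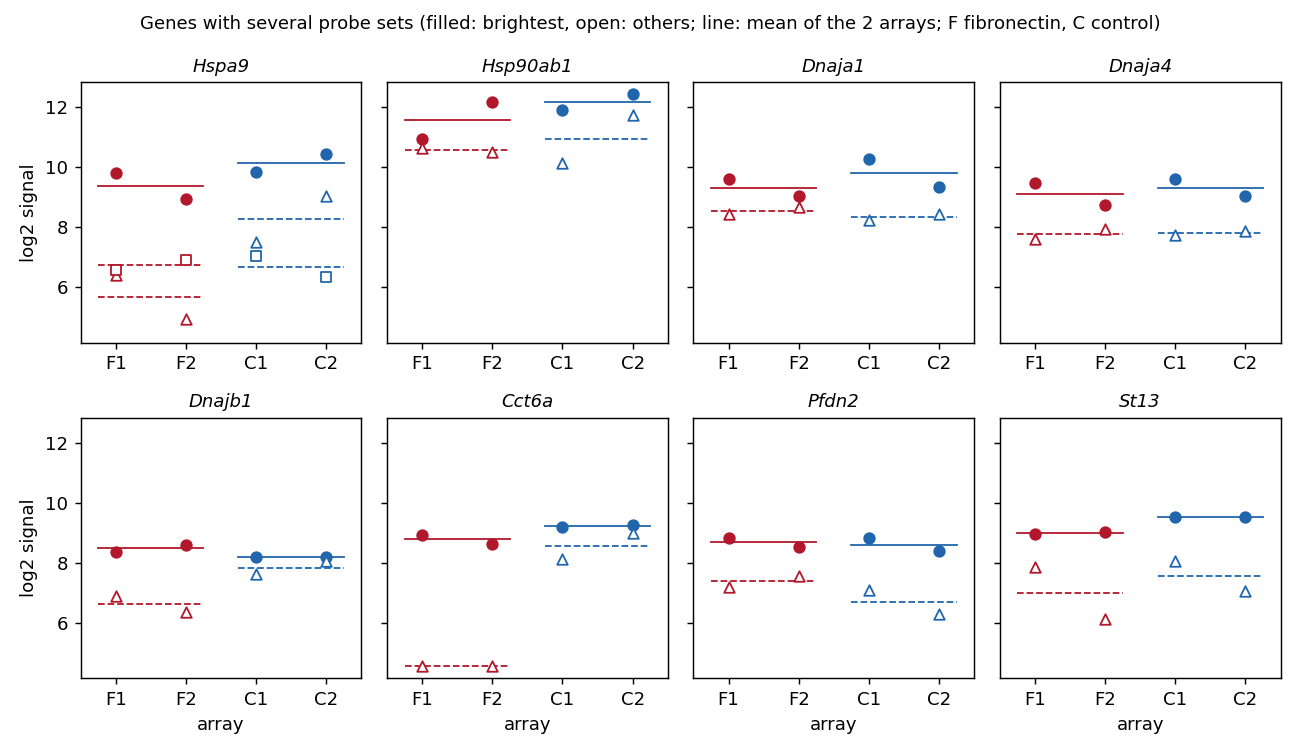
Log2 signal (vertical axis) on fibronectin arrays F1 and F2 and control arrays C1 and C2 (horizontal axis) for the 8 genes with several probe sets. Filled points are the brightest probe set of the gene, open points the others, and lines the mean of the 2 arrays. The difference of fibronectin minus control was far lower for the open points of Cct6a, Hspa9 (triangles) and Dnajb1 than for the filled ones.

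Promoter windows of 300 bases were found for 32 of the 35 measured genes in the RefSeq table, Dnaja2, Dnajb4 and St13 having no entry. The letters GAANNTTC or TTCNNGAA were found in 15 of the 32 windows, 46.9%, and in 15.4% of 27457 windows of the same length over all genes. A run of 3 units, GAANNTTC extended by NNGAA or TTCNNGAA extended by NNTTC, each the other on the opposite strand and each holding both shorter forms, was found in 6 of the 32, 18.8%, beside 0.736% of all windows. The 6 genes with such a run were Cct4, Chordc1, Dnaja1, Hspd1, Hspe1 and Hsph1, and their differences ran from -0.50 to 0.28 with a median of 0.13. The runs of Hspd1 and Hspe1 are the same stretch of DNA, counted once for each gene. Over the 15 genes with either form the median was 0.07, with 8 higher and 7 lower values, and over the 17 genes with neither it was 0.21, with 12 higher and 5 lower. A match describes the letters alone, and the classes were not compared by a test.

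**Figure D4:**
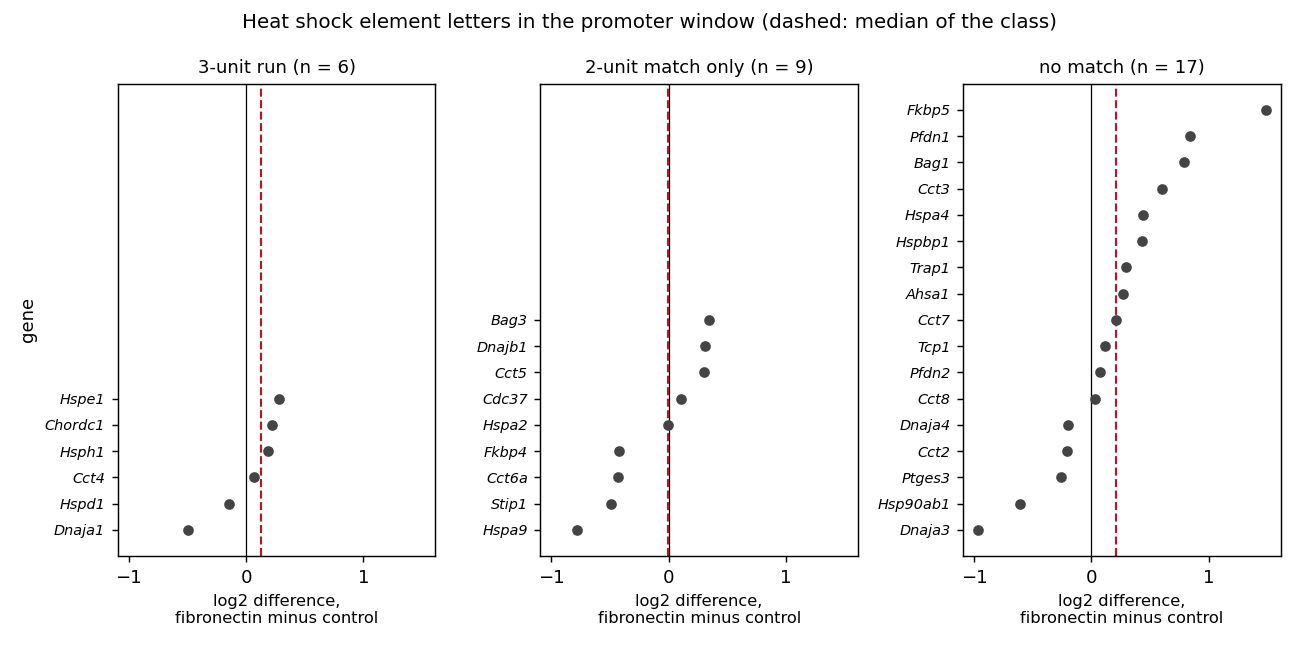
Log2 difference of fibronectin minus control (horizontal axis) for genes whose promoter window holds a 3-unit run (6 genes), a 2-unit match only (9 genes) or no match (17 genes), with a dashed line at the median of each class. The 3-unit genes lie between -0.50 and 0.28, and the class without a match holds both ends of the range, Dnaja3 at -0.97 and Fkbp5 at 1.49.

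Other genes of protein folding were counted from a list of 48 that covers heat shock factors, further J-domain and BAG proteins, the remaining prefoldin subunits, partners of Hsp70 and Hsp90, and mitochondrial proteases. Of these 39 were measured and 32 tested. Limma's test with Benjamini-Hochberg adjustment called 0 of them, and at an unadjusted p under 0.05 it gave 0 with higher values, beside 3.03% of all genes, and 3 with lower values, beside 2.65%. Mean values were higher on fibronectin for 23, beside 51.4% of all genes, and lower for 15, with a median of 0.08, beside 0.02 over all genes. The remaining gene, Hspa12b, was at the floor on all arrays. These counts include the dim genes that were not tested, while the shares and the median of all genes leave dim genes out. Hsf1, the factor that drives the heat shock response, measured 7.06 and 7.92 on fibronectin, against 7.05 and 7.77 on uncoated dishes, with overlapping groups and a difference of 0.08 (SE 0.49). The 3 genes with lower values were Hsf2, a second heat shock factor, Ppp5c, a phosphatase bound to Hsp90, and Ttc1, a protein with TPR repeats of the kind that dock on Hsp70 and Hsp90.

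Hsf2 measured 6.69 and 4.55 on fibronectin, against 7.51 and 7.37 on uncoated dishes, where fibronectin replicate 2 was at the floor, and differed by -1.82 (SE 0.77) with that array held at the floor. Its fibronectin mean of 5.62 was below the 6.01 named above, so Hsf2 also entered the test through the controls. Ppp5c measured 6.38 and 6.29 on fibronectin, against 7.23 and 7.86 on uncoated dishes and differed by -1.21 (SE 0.49). Ttc1 measured 8.02 and 7.53 on fibronectin, against 8.77 and 8.83 on uncoated dishes and differed by -1.03 (SE 0.36). For all 3 both fibronectin arrays were below both controls. No gene of the 3 reached the adjusted threshold of limma, Ttc1 coming nearest at a Benjamini-Hochberg adjusted p of 0.721. Clpb, a listed gene named after its values were seen, went the other way but was left out of the test as dim. It measured 6.54 and 6.57 on fibronectin, against 4.93 and 4.55 on uncoated dishes, with control replicate 2 at the floor. Its difference was 1.82. Over the 39 measured genes of the list, dim ones included, both fibronectin arrays lay above both controls for 9 and below them for 4. These were 23.1% and 10.3% of the list, beside 20.6% and 17.2% of the 7101 tested genes, a set that leaves dim genes out. Further prefoldin subunits on the list, named after their values were seen, were Pfdn4, Pfdn5 and Pfdn6, which differed by 0.24 (SE 0.39), 0.38 (SE 0.32) and 0.40 (SE 0.45). Together with Pfdn1 and Pfdn2, all 5 measured prefoldin subunits had higher mean values on fibronectin in their brightest probe sets on all 3 scales, beside 51.4% of all genes after quantile normalization, 57.0% on the deposited and 53.6% on the median-shifted scale. After quantile normalization the groups of Pfdn2 and Pfdn6 overlapped. Pfdn2 turned to -0.13 without control replicate 2 and to -0.083 without fibronectin replicate 1, where Pfdn6 turned to -0.091.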

How the data were processed

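Total RNA of each sample had been hybridised to 1 Affymetrix rat expression array. The deposited table gives each probe set a linear signal intensity for every array, made and scaled by the authors in a way that the labels do not state. Means trimmed by 2% at either end ran from 175.6 to 247.8 and so differed by more than 10%. The arrays were therefore quantile normalized, lifted to at least 23.4 where lower, which is the overall 20th percentile, and taken to log2. Of 15875 probe sets, 9 control probe sets and the dimmest 40% of the rest (6347) were left out, and 9519 were tested.

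Groups were taken from the sample titles. Fibronectin and control were compared in limma 3.58.1 (R 4.3.3) by lmFit and trended eBayes, two-sided, with Benjamini-Hochberg adjustment over all tested probe sets and a threshold of 0.05. SEs are limma's moderated errors. Gene names came from the platform annotation (12783 probe sets with 1 symbol, 312 with several, 2771 with none), and promoters from RefSeq. Every measured member was named by its brightest probe set, with values by array where a member led its family in level or difference, had an unadjusted p under 0.05 or is heat-inducible, and for some others. The array files carry no genome coordinates. The members and lists were chosen with earlier results of these data known. Alternatives were other scalings, no filter on dim probe sets, an offset of 50 without a floor, no intensity trend, an adjusted threshold of 0.10, a block for the replicate number, averaging of probe sets, and leaving out each array.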

Additional observations from a re-analysis of the deposited data

How the results depend on the processing

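No member passed limma's adjusted threshold in its brightest probe set under any setting run, and 21 of the 35 members kept the sign of their difference in all of them. The dim filter, the intensity trend, the block and the threshold leave a difference unchanged, so they could not alter a sign. Averaging could do so only for genes with several probe sets. The number of all probe sets past the threshold was 0 under every other scaling, filter, floor, variance model and threshold tried. With 1 array left out it ran from 0 to 337, the highest without fibronectin replicate 1, where the array left alone is given the spread of the other group. With the replicate number as a block it was 234. The dimmer Hspa9 and Cct6a probe sets were among both the 337 and the 234. Nothing in the labels says that the numbers pair arrays, and same-numbered deviations from the group means correlated with r = 0.271 across probe sets, which are not independent replicates. At an unadjusted p under 0.05, members with lower values numbered 2 with the replicate block (Hspa9 and Hsp90ab1), 2 with probe sets averaged (Hspa9 and Cct6a), and 0 to 2 with 1 array left out. Members with higher values numbered 0 on the deposited scale, 1 with arrays shifted to the same median (Bag1), 1 without an intensity trend (Fkbp5), 3 with the replicate block (Cct3, Pfdn1 and Bag1), and 0 to 2 with 1 array left out. The cause was not tested.

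The median of all members was 0.28 on the deposited scale and 0.24 with arrays shifted to the same median. On these scales the median was 0.32 and 0.27 for Hsp60 and Hsp10, 0.34 and 0.29 for CCT, and 0.05 and 0.0078 for Hsp90, against -0.16 after quantile normalization. With 1 array left out medians ran from 0.026 to 0.15 for all members, -0.31 to 0.35 for Hsp70, -0.55 to 0.23 for Hsp90, -0.023 to 0.15 for Hsp60 and Hsp10, -0.59 to 0.069 for Hsp40, -0.026 to 0.30 for CCT and 0.0012 to 0.51 for co-chaperones. Differences that changed sign with 1 array left out ran from -0.52 to 0.50 for Hspa2, -0.11 to 0.99 for Hspa4, -0.56 to 0.17 for Dnaja4, -0.71 to 0.046 for Dnajb4, -0.22 to 0.45 for Tcp1, -0.093 to 0.23 for Cct4, -0.023 to 0.44 for Cct7, -0.57 to 0.63 for Cct8, -0.13 to 0.28 for Pfdn2, -0.61 to 0.10 for Ptges3, -0.0012 to 0.87 for Hspbp1 and -0.30 to 0.52 for Cdc37. Hspa2 turned to 0.018 with an offset of 50, Hspd1 to 0.094 on the deposited scale and 0.047 with the median shift, and Dnajb1 to -0.46 with probe sets averaged. Dim signals near the floor, as for Hspa2 and Fkbp5, limit what their differences can show, and 2 arrays a group limit all of them.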
